A study of Mus musculus with 12 samples.

Results

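Mast cells are connective tissue and mucosal immune cells whose granules are filled with proteases, histamine and heparin. The 10 mast cell genes described here are Cpa3, Mcpt4, Tpsb2, Tpsab1, Cma1, Ms4a2, Hdc, Gata2, Maob and Slc22a3. They were taken as a given list of names, and 10 of 10 were found among the 43280 gene symbols of the count matrix. The tissue was the submandibular gland, a salivary gland, of embryonic day 15 mice of the strain Tg(KRT5-Venus)1Sgkd, in which the keratin 5 promoter drives the fluorescent protein Venus, called K5 below. All 4 populations carried this transgene, and all were sorted by flow cytometry as positive for E-cadherin, the adhesion molecule of epithelium. They differed in the receptor tyrosine kinase Kit and in Venus. Kit+ K5+ cells and Kit- K5+ cells had an active reporter, Kit+ K5- cells and Kit- K5- cells did not, and each population gave 3 of the 12 libraries. RNA was read as single 50 nt reads. The labels do not say whether the 3 libraries of a population came from separate embryos, litters or sorts, so the tests measure the spread between these libraries, which may be technical.

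Mast cells arise from blood-forming progenitors, enter tissues before birth and, as background, keep Kit at their surface through life because its ligand, stem cell factor, maintains them. On activation through the high-affinity receptor for immunoglobulin E they release granule contents. Connective tissue mast cells of the mouse are known for chymases, tryptases and carboxypeptidase A3, and basophils, a related blood cell, share histamine synthesis and the immunoglobulin E receptor but carry other proteases.

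The genes divide by role. Cpa3 encodes carboxypeptidase A3, Cma1 and Mcpt4 encode chymases, and Tpsb2 and Tpsab1 encode tryptases, all stored in the granules. Hdc encodes histidine decarboxylase, which forms histamine. Ms4a2 encodes the beta chain of the high-affinity immunoglobulin E receptor, and Gata2 a zinc finger transcription factor of blood progenitors, mast cells and basophils. Maob encodes a mitochondrial monoamine oxidase and Slc22a3 an organic cation transporter that carries monoamines, and both are also known from cells other than mast cells. In GENCODE M21 on GRCm38 the tryptase genes Tpsab1 (chr17:25343245-25345562) and Tpsb2 (chr17:25366305-25369098) lay 20742 bases apart. The chymase genes Cma1 (chr14:55941451-55944675) and Mcpt4 (chr14:56059629-56062313) lay 114953 bases apart. The others were Cpa3 (chr3:20215620-20242181), Ms4a2 (chr19:11615523-11623719), Hdc (chr2:126593667-126619299), Gata2 (chr6:88193891-88207032), Maob (chrX:16709282-16817366) and Slc22a3 (chr17:12418960-12507704). All 10 are annotated as protein coding.

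The promoters of the 5 members found to hold a GATA hexamer are shown. These genes parted between the populations. Cpa3, Hdc and Ms4a2 had counts in every Kit- K5- library, where the chymase genes Cma1 and Mcpt4 had few or 0. Sequences are the bases before the RefSeq start site on GRCm38.p6, 5′ to 3′ on the strand of the gene, and stop before any GENCODE exon of the gene. The Hdc stretch lies in an intron of a longer GENCODE transcript and the others lie upstream of the gene. Capitals mark a GATA hexamer, searched as AGATAA on both strands, also with T as its first letter, with G as its last letter or with both.
Cpa3, chr3:20242182-20242431, minus strand: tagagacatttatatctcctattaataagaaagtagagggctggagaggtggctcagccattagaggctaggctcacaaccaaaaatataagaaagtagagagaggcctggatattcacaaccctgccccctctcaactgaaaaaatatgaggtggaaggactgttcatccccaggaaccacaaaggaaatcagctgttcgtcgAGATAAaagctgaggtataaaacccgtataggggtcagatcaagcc
Hdc, chr2:126618679-126618928, minus strand: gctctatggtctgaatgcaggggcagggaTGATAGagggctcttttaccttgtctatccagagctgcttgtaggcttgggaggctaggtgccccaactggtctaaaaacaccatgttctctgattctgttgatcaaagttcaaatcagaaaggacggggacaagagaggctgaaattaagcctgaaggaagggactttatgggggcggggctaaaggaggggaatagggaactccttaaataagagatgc
Ms4a2, chr19:11623720-11623969, minus strand: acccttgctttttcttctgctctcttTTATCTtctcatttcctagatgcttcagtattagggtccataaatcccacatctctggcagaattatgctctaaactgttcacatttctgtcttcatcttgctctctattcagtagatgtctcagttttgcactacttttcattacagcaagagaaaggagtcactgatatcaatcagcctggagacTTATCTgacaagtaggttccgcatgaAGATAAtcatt
Cma1, chr14:55944676-55944925, minus strand: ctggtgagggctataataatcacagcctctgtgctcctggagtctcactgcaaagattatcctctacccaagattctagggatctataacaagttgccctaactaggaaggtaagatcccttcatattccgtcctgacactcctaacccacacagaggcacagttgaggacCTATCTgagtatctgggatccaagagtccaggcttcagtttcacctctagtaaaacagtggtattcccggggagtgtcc
Mcpt4, chr14:56062314-56062560, minus strand: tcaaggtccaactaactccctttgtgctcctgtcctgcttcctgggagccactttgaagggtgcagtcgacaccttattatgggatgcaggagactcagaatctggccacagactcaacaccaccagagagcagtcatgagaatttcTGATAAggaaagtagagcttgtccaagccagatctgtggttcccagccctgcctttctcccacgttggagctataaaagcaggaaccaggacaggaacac
RefSeq promoters were matched for 7 members, namely these with Gata2 and Slc22a3. In the 250 bases before the start, 5 of the 7 held a GATA hexamer, against 26.5% of all 32851 windows of that length, and 0 of 7 held CACATG or CACGTG, against 17.6% of windows. Ms4a2 held 3 such hexamers and the other 4 held 1 each, so the letters occurred on both sides of the split between populations. Gata2, which also had counts in every Kit- K5- library, held 0, as did Slc22a3, and these promoters are not shown. A match is a description of the letters only.

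The tryptases are close relatives, which matters for whether a read can be assigned to either gene. Their coding sequences, of 828 bases for Tpsb2 and 930 for Tpsab1, were identical at 626 of the 931 columns of their alignment. This is 67.2% with gap columns counted, so the identity over paired bases is higher. The longest run that they share is the following stretch of 39 bases, shown in lower case throughout because all of it is common to both.
Tpsb2 and Tpsab1, shared coding run: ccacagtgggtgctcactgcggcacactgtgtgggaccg
It is shorter than a 50 nt read, and 0 of the 50-base windows of either tryptase occurred in a transcript of another gene. For Cpa3, Gata2 and Maob the share was likewise 0. It was 8.27% of windows for Slc22a3, shared with Plg, 5.48% for Mcpt4, mostly with Cma2, 5.38% for Cma1, with Gm48934, 2.1% for Ms4a2, with Ms4a4b, and 0.141% for Hdc. The sources used here give neither the handling of such reads nor the strand setting, so the assignment of reads from those windows is uncertain.

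Libraries held 5589037 to 13724364 counts. Levels are given in CPM, gene counts scaled to library size with edgeR's TMM factors. Kit itself stood at 283 to 445 CPM in the 6 Kit+ libraries and at 10 to 26.4 CPM in the 6 Kit- libraries. Krt5, the keratin of the reporter's promoter, stood at 1.57, 9.93 and 4.26 CPM in Kit+ K5+ libraries, against 0.317, 4.63 and 2.33 CPM in Kit+ K5- libraries, and these overlapped. It stood at 13.5 to 22.9 CPM in Kit- K5+ libraries, against 0.853 to 7.15 CPM in Kit- K5- libraries, with no overlap. The summed level of 18 epithelial genes was 1694 to 3420 CPM in the libraries of the other 3 populations and 491 to 640 CPM in Kit- K5- libraries. In the Kit- K5- libraries 12 mesenchyme genes summed to 10175 to 16415 CPM, above the epithelial sum, although these cells too were labelled as epithelial. In mast cell genes 1 library stood apart, Kit+ K5- replicate 1, and results that rest on it are given with and without it. Library numbers run from 1 to 12, and each run of 4 holds every population once. Within a run, deviations from the population means were correlated at r over 0.1 for every pair of libraries in the 4 pairwise comparisons. Values with the run as a block are therefore given where the block changed a call.

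Mast cell transcripts took the largest share of reads in the Kit+ K5- libraries, and that share differed widely between the 3. Together the 10 genes took 0.00486%, 0.00121% and 0.00129% of all gene counts in Kit+ K5+ libraries. In Kit+ K5- libraries they took 0.659% in replicate 1 (exact Clopper-Pearson 95% interval 0.654 to 0.665), 0.0266% in replicate 2 (0.0255 to 0.0277) and 0.0126% in replicate 3 (0.0118 to 0.0134). These last are 51831 of 7862830, 2403 of 9035595 and 963 of 7629951 counts. The intervals cover counting error only, since reads without molecular identifiers are not independent molecules. Among Kit+ K5- libraries the highest share was 24.8 times the middle and 52.2 times the lowest, far beyond counting error. In a bulk library a larger number of mast cells and more mast cell RNA per cell cannot be told apart.

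In Kit- K5+ libraries the share was 0.00155%, 0.000295% and 0.00116%, and in Kit- K5- libraries 0.00526%, 0.00223% and 0.00246%. Every Kit+ K5- library lay above all 9 libraries of the other populations. Within the 3 runs, the Kit+ K5- share was 136, 22.0 and 9.80 times that of Kit+ K5+ libraries, 425, 90.2 and 10.9 times that of Kit- K5+ libraries, and 125, 11.9 and 5.12 times that of Kit- K5- libraries. In each of the 4 populations the highest share was that of the first run.

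**Figure D1:**
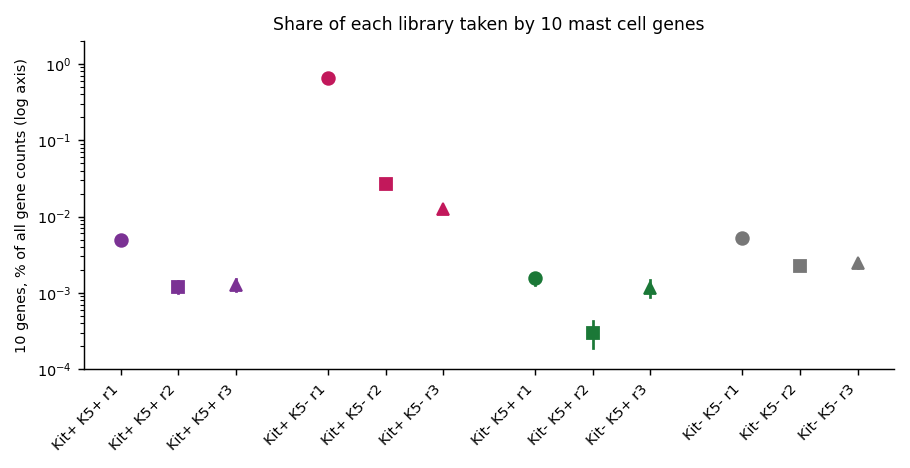
Percent of all gene counts taken by the 10 mast cell genes in each of the 12 libraries (log axis), with vertical bars for exact 95% intervals of counting error, mostly smaller than the symbols. The 3 Kit+ K5- libraries, at 0.659%, 0.0266% and 0.0126%, lie above the other 9, which do not exceed 0.00526%.

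The summed level of the 10 genes was 12.1 to 51.1 CPM in Kit+ K5+ libraries (median 15.6), 140 to 5478 CPM in Kit+ K5- libraries (median 253), 3.43 to 15.4 CPM in Kit- K5+ libraries (median 12.4) and 20.2 to 47.3 CPM in Kit- K5- libraries (median 22.8). By median, Kit+ K5- cells were followed by Kit- K5-, Kit+ K5+ and Kit- K5+ cells. Kit+ K5- cells stood clear of the next population, and each of the other neighbours in that order overlapped. Cpa3 made up 38.6%, 41.2% and 54.5% of the members' counts in the 3 Kit+ K5- libraries, against 14.4%, 20.8% and 23.8% in the Kit- K5- libraries. Hdc had more counts than Cpa3 in all 3 Kit- K5- libraries.

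Among the granule proteases, Cpa3 had 28.7, 1.74 and 0 CPM in Kit+ K5+ libraries, against 2114, 104 and 76.5 CPM in Kit+ K5- libraries. In Kit- cells Cpa3 had 1.63, 0.275 and 0.765 CPM with an active reporter and 6.82, 4.21 and 5.41 CPM without. The chymase Cma1 had 5.17, 1.64 and 0 CPM in Kit+ K5+ libraries, against 977, 40.4 and 13.0 CPM in Kit+ K5- libraries. For both genes every Kit+ K5- library lay above every Kit+ K5+ library. In Kit- cells Cma1 was at or near the floor of counting, with 5, 0 and 0 counts in Kit- K5+ libraries and 4, 0 and 0 counts in Kit- K5- libraries. The level of Cpa3 in Kit- K5- cells thus came with almost no Cma1.

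Mcpt4, the other chymase, had 0 counts in 3 of 3 Kit+ K5+ libraries, against 65.6, 4.21 and 4.95 CPM in Kit+ K5- libraries. It had 7, 2 and 0 counts in Kit- K5+ libraries and 0 counts in 3 of 3 Kit- K5- libraries. It was thus read almost only in Kit+ K5- cells. With a floor of 3 counts over a group, Mcpt4 was at least 259.8-fold lower in Kit+ K5+ cells than in Kit+ K5- cells. It was at least 342-fold higher in Kit+ K5- cells than in Kit- K5- cells. Most of its counts were in 1 library, and without Kit+ K5- replicate 1 the bounds were at least 43.7-fold lower and at least 57.4-fold higher, an alternative chosen after seeing the data. These bounds too cover counting error only.

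The tryptases varied over a wider range than Cpa3 between the Kit+ K5- libraries. Tpsb2 had 4.24, 0.675 and 0 CPM in Kit+ K5+ libraries, against 534, 14.5 and 2.04 CPM in Kit+ K5- libraries. Tpsab1 had 2.31, 0.193 and 0 CPM in Kit+ K5+ libraries, against 399.9, 14.7 and 3.35 CPM in Kit+ K5- libraries. For Tpsb2 these populations overlapped, since Kit+ K5+ replicate 1 lay above Kit+ K5- replicate 3, and for Tpsab1 they did not. In Kit- cells Tpsb2 had 1 count in all in Kit- K5+ libraries and 8 in Kit- K5- libraries, and Tpsab1 had 0 and 5.

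Hdc, the enzyme of histamine synthesis, was found in all 12 libraries. It had 6.73, 0.771 and 3.75 CPM in Kit+ K5+ libraries, against 1014, 36.9 and 19.1 CPM in Kit+ K5- libraries. It had 6.13, 1.92 and 6.12 CPM in Kit- K5+ libraries, against 23.3, 9.81 and 7.76 CPM in Kit- K5- libraries. Kit- K5- replicate 1 exceeded Kit+ K5- replicate 3, so Kit+ K5- and Kit- K5- cells overlapped, while K5+ libraries lay below K5- libraries on each side of the Kit gate.

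Ms4a2, the receptor beta chain, had the smallest fitted gap between Kit+ K5- and Kit- K5- cells. It had 0.646, 0.0964 and 0 CPM in Kit+ K5+ libraries, against 29.9, 3.16 and 0.728 CPM in Kit+ K5- libraries. It had 2.25, 0.275 and 0.574 CPM in Kit- K5+ libraries, against 4.98, 1.84 and 2.86 CPM in Kit- K5- libraries. The lowest Kit+ K5- library lay below all 3 Kit- K5- libraries.

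Gata2, the transcription factor, was scarce in K5+ cells of either kind. It had 1.38, 0.578 and 0 CPM in Kit+ K5+ libraries, against 224, 21.0 and 11.4 CPM in Kit+ K5- libraries. It had 1 count over the 3 Kit- K5+ libraries, against 10.6, 2.76 and 5.41 CPM in Kit- K5- libraries. The populations with and without K5 did not overlap on either side of the Kit gate.

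The amine genes behaved less alike. Slc22a3, the transporter, had 0.646, 0 and 0 CPM in Kit+ K5+ libraries, against 30.2, 5.16 and 3.50 CPM in Kit+ K5- libraries. In Kit- cells it had 0.625, 0.275 and 2.49 CPM with an active reporter and 0.262, 0.383 and 0.408 CPM without. Maob, the oxidase, had 1.29, 6.36 and 11.9 CPM in Kit+ K5+ libraries, against 89.3, 8.85 and 5.83 CPM in Kit+ K5- libraries. Maob was the only member whose highest Kit+ K5+ library was in the third run, where it exceeded the Kit+ K5- library of that run. In Kit- cells Maob had 3.13, 0.412 and 2.30 CPM with an active reporter and 0.459, 1.15 and 0.715 CPM without.

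The members passed the low-count filter through different libraries. For 5 of 10 (Mcpt4, Tpsb2, Tpsab1, Cma1 and Slc22a3) the minimum of 1.11 CPM was reached in all 3 Kit+ K5- libraries but in fewer than 3 of the other 9, so these genes entered the tests through the population where they were high and had to differ from the others there. Counts that include them support nothing, and they are given below next to the counts over the other 5 (Cpa3, Ms4a2, Hdc, Gata2 and Maob).

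**Figure D2:**
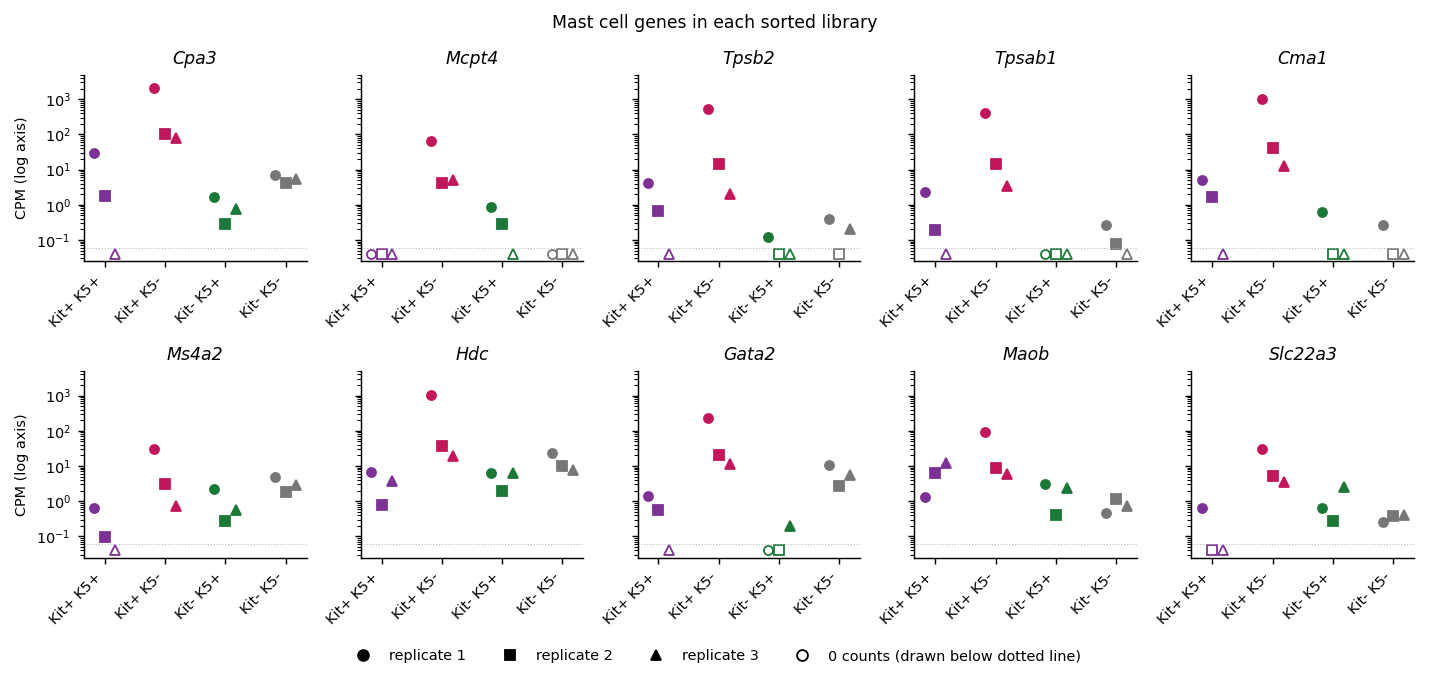
CPM of each mast cell gene in each library (log axis), by population and replicate number, with open symbols below the dotted line for 0 counts. Kit+ K5- replicate 1 is the highest library in all 10 panels, and Mcpt4 has 0 counts in all Kit+ K5+ and Kit- K5- libraries.

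Per length the order of the genes changed between these libraries. Levels per kilobase of annotated exon in Kit+ K5- replicate 1 were highest for Cpa3 (1393 CPM per kb), followed by Cma1 (896), Tpsb2 (335), Tpsab1 (191), Hdc (159), Mcpt4 (59.2), Gata2 (41.5), Maob (32.0), Ms4a2 (10.6) and Slc22a3 (6.70). In replicate 3 Cpa3 (50.4 CPM per kb) and Cma1 (11.9) again led, but Mcpt4 (4.47), Hdc (2.99), Gata2 (2.10) and Maob (2.09) stood above Tpsab1 (1.60) and Tpsb2 (1.28). These are levels and not differences, on the CPM per kb scale.

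Kit+ K5+ cells were compared with Kit+ K5- cells to ask how the K5 reporter divides mast cell transcripts among Kit+ cells. All 10 genes had lower fitted levels in Kit+ K5+ cells, and 8 of 10 had every Kit+ K5+ library below every Kit+ K5- library, where 5.92% of all 17030 genes tested did. Of the 5 that did not depend on Kit+ K5- libraries to pass the filter, 4 of 5 did, all but Maob. By edgeR's quasi-likelihood test with Benjamini-Hochberg adjustment, 0 of 10 passed 0.05, as did 0% of all genes. The smallest adjusted p of a member was 0.163, for Gata2. All 10 had an unadjusted p under 0.05, as did 1161 of the 17030 genes. DESeq2 called 3 lower, Ms4a2, Gata2 and Slc22a3, where it called 111 of all genes lower, and gave no p for Cpa3, Mcpt4 and Hdc. Of its 3 calls, 2 were among the 5 that did not depend on Kit+ K5- libraries. With the block on runs 8 of 10 passed, all lower in Kit+ K5+ cells, where 0.305% of all genes were lower. Of the 5 that did not depend on Kit+ K5- libraries, 4 of 5 passed.

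With the block Tpsab1 was lower by a log2 difference of -7.17 ± 0.42 (SE, adjusted p = 5.11e-05, ± 1.67 and adjusted p = 0.275 without the block). Cma1 stood at -6.52 ± 0.52 with the block (adjusted p = 9.74e-05, 0.183 without it), and Tpsb2 at -6.19 ± 0.65 (adjusted p = 0.00105, 0.277 without it). For Gata2 the blocked difference was -6.45 ± 0.75 (adjusted p = 0.00197). Tpsab1, Cma1 and Tpsb2 had entered the tests through Kit+ K5- libraries, so their calls support nothing, while Gata2 had not. Cpa3 stood at -6.10 ± 0.81 with the block (adjusted p = 0.00541, 0.275 without it). Hdc stood at -5.61 ± 0.96 (adjusted p = 0.0278, 0.183 without it) and Ms4a2 at -5.04 ± 0.91 (adjusted p = 0.0388, 0.303 without it). Mcpt4 passed as well (adjusted p = 0.00504 with the block, 0.183 without it), and its size is the bound given above. Slc22a3 at -5.72 ± 1.12 (adjusted p = 0.0588) and Maob at -1.78 ± 1.07 (adjusted p = 0.583) passed in neither fit.

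With the first run left out, the calls made with the block were lost for all members but Cpa3. Single libraries were left out only without the block, where 0 of 10 had passed with all libraries. There 0 of 10 passed without Kit+ K5- replicate 1 as well, which shows no loss. The difference was then -3.14 for Cpa3 and -0.18 for Maob. With libraries 1 to 4 left out, an alternative chosen after seeing the data, Cpa3 alone passed (log2 -6.58, adjusted p = 0.0146, and 0.00106 with the block). Maob then stood at 0.29. The fitted differences of the members other than Maob, Cpa3, Mcpt4 and Slc22a3 lay between -6.26 (Tpsab1) and -3.68 (Hdc) without passing. Slc22a3, with 0 counts left in Kit+ K5+ libraries, did not pass either, and its fitted -8.27 depends on the prior count. Markers of other leukocytes moved with these genes: 15 leukocyte and macrophage genes summed to 55.7 to 68.0 CPM in Kit+ K5+ libraries, against 122 to 589 CPM in Kit+ K5- libraries, the highest again in replicate 1. Of those 15, 0 were called without the block. Among them 12 had an unadjusted p under 0.05, as did 1161 of all 17030 genes. DESeq2 called 5 of them lower, where it called 111 of all genes lower. With the block 5 were lower in Kit+ K5+ cells, where 0.305% of all genes were. One of these was Laptm5, a lysosomal membrane protein of blood cells, at log2 -4.99 ± 0.42 (adjusted p = 1.10e-04). Their part in the result was not tested.

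**Figure D3:**
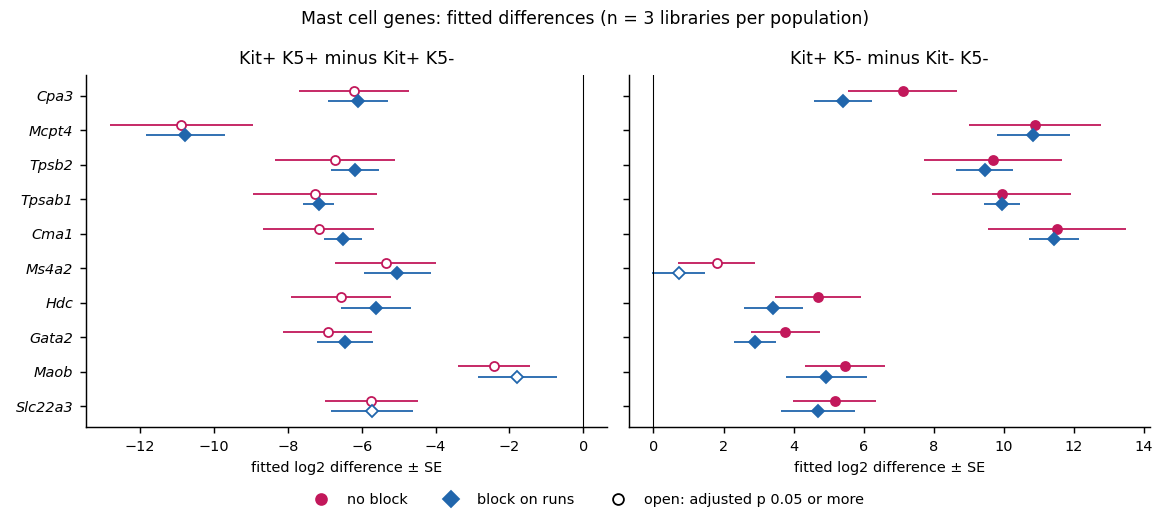
Fitted log2 differences with their SE for Kit+ K5+ minus Kit+ K5- cells (left) and Kit+ K5- minus Kit- K5- cells (right), without the block (circles) and with the block on runs (diamonds), filled where the adjusted p was below 0.05. On the left 0 of 10 circles and 8 of 10 diamonds are filled, and on the right 9 of 10 of each. The values of Mcpt4 rest on groups with 0 counts and depend on the prior count of the fit.

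Kit+ K5- cells were compared with Kit- K5- cells to ask what the Kit gate separates where K5 is not active. In this comparison 9 of 10 genes were higher in Kit+ K5- cells without and with the block, all but Ms4a2, where 10.2% of all genes were higher without and 14.3% with the block. The 3 libraries of each population did not overlap for 8 of 10, where 20% of all genes were higher without overlap. Over the 5 genes that did not depend on Kit+ K5- libraries to pass the filter, 4 of 5 were higher and 3 of 5 did not overlap. Cma1 differed by log2 11.53 ± 1.96 (adjusted p = 0.00109). Tpsab1 differed by 9.94 ± 1.99 (adjusted p = 0.00448) and Tpsb2 by 9.70 ± 1.96 (adjusted p = 0.00347), and Mcpt4 passed as well (adjusted p = 0.00307).

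Cpa3 differed by 7.12 ± 1.55 (adjusted p = 0.0054), Maob by 5.47 ± 1.15 (adjusted p = 0.00429) and Slc22a3 by 5.17 ± 1.19 (adjusted p = 0.00741). Hdc differed by 4.70 ± 1.22 (adjusted p = 0.0146) and Gata2 by 3.76 ± 0.98 (adjusted p = 0.015). Ms4a2 did not pass, at 1.80 ± 1.10 (adjusted p = 0.275).

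Without Kit+ K5- replicate 1, 6 of 10 passed, all higher in Kit+ K5- cells, and 3385 of all genes passed in either direction. The filter was run anew for each fit with libraries left out. Counts over all genes from these fits, here and below, join both directions and are not shares of the genes tested. The 5 proteases and Maob remained, with Cpa3 at log2 4.04 (adjusted p = 0.0193), Cma1 at 7.88 (adjusted p = 0.00204) and Maob at 3.23 (adjusted p = 0.0205). Of the genes that did not depend on Kit+ K5- libraries to pass the filter, only Cpa3 and Maob remained. Hdc stood at 1.04 (adjusted p = 0.335), Gata2 at 1.37 (adjusted p = 0.281) and Slc22a3 at 3.59 (adjusted p = 0.0634), while Ms4a2 turned to -0.71. Hdc and Gata2 also missed the threshold without Kit- K5- replicate 2 or without replicate 3 of that population. The same 6 passed with libraries 1 to 4 left out, without and with the block, where 2785 and 4131 of all genes passed in either direction.

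Kit- K5+ cells were compared with Kit- K5- cells, the same division by K5 among cells outside the Kit gate. Gata2 was lower in Kit- K5+ cells (log2 -6.66 ± 1.75, adjusted p = 0.0199), 1 member of 10 where 9.1% of all genes were lower. Its call was lost without any 1 of the 3 Kit- K5+ libraries or without Kit- K5- replicate 1, with adjusted p-values up to 0.077. With the block Cpa3 was lower as well (log2 -3.78 ± 1.19, adjusted p = 0.0352, 0.323 without the block). With the block Mcpt4 was higher in Kit- K5+ cells, at least 5.57-fold on 9 counts against 0 (adjusted p = 0.0213, 0.165 without the block). With the block these were 2 members lower where 12.8% of genes were, and 1 higher where 11% were. The other 7 members passed in neither fit. The libraries did not overlap for Cpa3, Hdc and Gata2, 3 of 10, where 20.1% of genes were lower without overlap. Leukocyte genes also moved here, with 11 of 15 lower in Kit- K5+ cells, and their sum was 68.1 to 80.0 CPM there against 282 to 1522 CPM in Kit- K5- libraries. Their part in the result was not tested.

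Kit+ K5+ cells were compared with Kit- K5+ cells, the Kit gate among cells with an active K5 reporter. By edgeR's test 0 of 10 passed, where 0.658% of all genes did. An unadjusted p under 0.05 was found for 0 of 10, where 3149 of 17030 genes had one. DESeq2 called 0, against 1039 of all genes. The smallest adjusted p was 0.279, for Cpa3 (log2 3.48 ± 1.65). With the block Tpsab1 (adjusted p = 0.0163), Cma1 (log2 3.78 ± 0.87, adjusted p = 0.0313) and Tpsb2 (adjusted p = 0.0422) were higher in Kit+ K5+ cells, 3 of 10 where 2.54% of genes were higher. All 3 had entered the tests through Kit+ K5- libraries. With libraries 1 to 4 left out and the block, the 3 calls were lost, with an adjusted p of 0.507 for Tpsab1, 0.138 for Cma1 and 0.387 for Tpsb2. The other 7 members passed in neither fit. For Tpsab1, with 27 counts against 0, the bound was at least 6.37-fold. Tpsb2 had 53 counts against 1, a ratio of 37.5 (95% interval from counting 6.45 to 1510). In 10 of 10 members the populations overlapped, where 10.2% of genes were higher without overlap.

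The interaction asks whether the K5 difference among Kit+ cells differs from that among Kit- cells. For 2 of 10 members it passed, both with the more negative K5 difference among Kit+ cells, where 1.21% of all genes passed in that direction: Mcpt4 (adjusted p = 0.0181) and Slc22a3 (log2 -7.34 ± 1.70, adjusted p = 0.027). Both had entered the tests through Kit+ K5- libraries. Of the 5 members that did not depend on those libraries to pass the filter, 0 passed. The K5 difference of Slc22a3 was -5.74 ± 1.26 among Kit+ cells and 1.60 ± 1.16 among Kit- cells. Neither of those differences passed on its own (adjusted p = 0.219 and 0.377). For Gata2, with lower fitted levels in K5+ cells on both sides of the gate, the interaction did not pass (log2 -0.26, adjusted p = 0.997).

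The proportions of the members to each other also differed between Kit+ K5- and Kit- K5- libraries. Per 100 counts of Cpa3, Cma1 had 16.95 to 46.2 counts in Kit+ K5- libraries, against 0 to 3.85 in Kit- K5- libraries, and Tpsab1 had 4.38 to 18.9 in Kit+ K5- libraries, against 0 to 3.85. Hdc had 24.95 to 48.0 counts in Kit+ K5- libraries, against 143 to 341 in Kit- K5- libraries. Gata2 had 10.6 to 20.1 in Kit+ K5- libraries, against 65.5 to 156 in Kit- K5- libraries. Ms4a2 had 0.952 to 3.03 in Kit+ K5- libraries, against 43.6 to 73.1 in Kit- K5- libraries. Within each population the 3 libraries thus kept Hdc, Gata2 and Ms4a2 in a range to Cpa3 that the other population did not reach. No test was run on these ratios.

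The proteases also differed in proportion among the 3 Kit+ K5- libraries. Per 100 Cpa3 counts Tpsb2 had 25.3, 14.0 and 2.67 counts and Tpsab1 18.9, 14.2 and 4.38. Cma1 had 46.2, 38.8 and 16.95 counts and Mcpt4 had 3.11, 4.04 and 6.48. The library with most mast cell transcripts therefore held most tryptase and Cma1 per Cpa3 and least Mcpt4.

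Proteases known from mouse basophils, Mcpt8 and Prss34, were read for comparison. Mcpt8 had 15, 4 and 1 counts in Kit+ K5- libraries, against 88, 81 and 16 counts in Kit- K5- libraries. Per 100 Cpa3 counts this was 0.0930 over the Kit+ K5- and 87.3 over the Kit- K5- libraries. Prss34 had 0.409 and 23.1 in the same order, with 83, 5 and 0 counts in Kit+ K5- libraries, against 19, 17 and 13 in Kit- K5- libraries. Mcpt8 was lower in Kit+ K5- cells than in Kit- K5- cells with the block (log2 -2.87 ± 0.98, adjusted p = 0.043, 0.0852 without it), and without the block also when Kit+ K5- replicate 1 was left out (log2 -3.90, adjusted p = 0.0417). Mcpt8 reached the filter's minimum in every Kit- K5- library but in few others. It entered the tests through the population where it was high, so these calls support nothing. The part of Mcpt8 and Prss34 transcripts in the levels of Hdc, Ms4a2, Gata2 and Cpa3 in Kit- K5- cells was not tested.

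**Figure D4:**
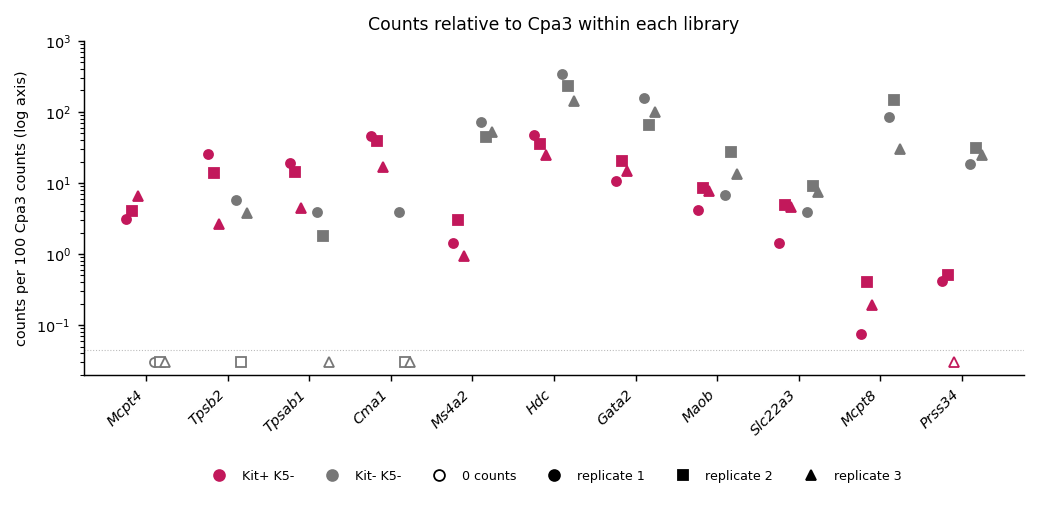
Counts of each gene per 100 counts of Cpa3 in the Kit+ K5- and Kit- K5- libraries (log axis), with open symbols for 0 counts. Cma1 lies at 16.95 to 46.2 in Kit+ K5- libraries, against 0 to 3.85 in Kit- K5- libraries, and Hdc, Gata2, Ms4a2 and Mcpt8 lie higher in Kit- K5- than in Kit+ K5- libraries.

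Other genes of mast cells were read from lists by role. Of 18 genes of granules and mediators 13 passed the filter on low counts, and 4 of these 13 were higher in Kit+ K5- cells than in Kit- K5- cells, where 10.2% of all genes were higher, with a median log2 of 1.45 against 0.05 over all genes. Mcpt2, a mucosal mast cell protease, had 5.28, 3.26 and 4.22 CPM in Kit+ K5- libraries and 0 counts in all 3 Kit- K5- libraries (adjusted p = 0.0017). Gzmb, granzyme B, had 30.2, 12.2 and 11.4 CPM in Kit+ K5- libraries, against 2.03, 0 and 0 CPM in Kit- K5- libraries (log2 4.63 ± 1.21, adjusted p = 0.0149). Neither followed the share of the 10 members in proportion, since Kit+ K5- replicate 1 stood far less above the other replicates than it did for the tryptases. Slc18a2, the vesicular transporter that loads monoamines, differed by log2 1.45 ± 0.44 (adjusted p = 0.0301) and Rab27b, a regulator of granule release, by 2.90 ± 0.95 (adjusted p = 0.0433). With the block 5 were higher, where 14.3% of all genes were, among them the granule proteoglycan Srgn, at log2 1.65 ± 0.37 (adjusted p = 0.00497). With it 2 were lower, where 14.9% of all genes were. Without Kit+ K5- replicate 1, 2 of 13 were higher in Kit+ K5- cells, Mcpt2 (adjusted p = 0.00554) and Gzmb (adjusted p = 0.0499), while Rab27b stood at log2 0.51 (adjusted p = 0.66) and Slc18a2 at 0.82 (adjusted p = 0.167). Over all genes 3385 then passed in either direction. Mcpt2 and Gzmb reached the filter's minimum in all 3 Kit+ K5- libraries but in fewer than 3 others. They had to be high there, so their calls support nothing.

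Among 14 receptor and signalling genes 11 passed the filter and 3 were higher in Kit+ K5- cells than in Kit- K5- cells, where 10.2% of all genes were higher, with a median log2 of 1.35. Il1rl1, the receptor of interleukin 33, had 158, 9.58 and 7.28 CPM in Kit+ K5- libraries, against 7.34, 3.6 and 4.70 CPM in Kit- K5- libraries (adjusted p = 0.036). Adora3, an adenosine receptor, had 53.5, 1.79 and 0.874 CPM in Kit+ K5- libraries, against 1.38, 0.536 and 0.408 CPM in Kit- K5- libraries (adjusted p = 0.0335). Enpp3, an ectoenzyme used as a mast cell and basophil surface marker, had another pattern, with 73.3, 70.9 and 49.9 CPM in Kit+ K5+ libraries. It had 67.5, 68.7 and 48.2 CPM in Kit+ K5- libraries, against 12.4, 12.5 and 12.9 CPM in Kit- K5- libraries. This difference was log2 2.29 ± 0.23 (adjusted p = 1.77e-05). Outside the Kit gate, an active reporter also went with more Enpp3 (log2 1.75 ± 0.23, adjusted p = 0.000206). Where the reporter was active, the Kit difference of Enpp3 did not pass (log2 0.61 ± 0.22, adjusted p = 0.172). Enpp3 thus did not follow the Kit gate alone. The gamma chain Fcer1g, shared with other leukocytes, had 120, 7.79 and 3.35 CPM in Kit+ K5- libraries, against 82.2, 28.7 and 14.4 CPM in Kit- K5- libraries. The alpha chain Fcer1a, which binds immunoglobulin E, did not exceed 1.34 CPM in any library. Without Kit+ K5- replicate 1, 1 of 11 was higher in Kit+ K5- cells, Enpp3 (log2 2.22, adjusted p = 5.48e-05), while Il1rl1 stood at 0.69 (adjusted p = 0.658) and Adora3 at 0.77 (adjusted p = 0.718). Over all genes 3385 then passed in either direction.

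Of 8 transcription factors of mast cells other than Gata2, 7 passed the filter. In Kit+ K5- against Kit- K5- cells 0 of 7 passed the test. An unadjusted p under 0.05 was found for 0 of 7, where 5791 of 17030 genes had one. DESeq2 called 0, against 4552 of all genes. With the block 1 was higher, Meis2, where 14.3% of all genes were higher. Among Kit+ cells Ikzf1 and Spi1, factors of several leukocyte lineages, were lower in Kit+ K5+ cells with the block, at log2 -3.95 ± 0.62 (adjusted p = 0.0176) and -5.45 ± 1.02 (adjusted p = 0.043).

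Other cell types were read from their own lists. Leukocyte and macrophage genes summed to 122 to 589 CPM in Kit+ K5- libraries, against 282 to 1522 CPM in Kit- K5- libraries, and 3 of 15 were lower in Kit+ K5- cells, where 11.1% of all genes were. These were Lyz2 (adjusted p = 0.00762), Itgam (adjusted p = 0.0149) and Csf1r (adjusted p = 0.0308), all genes of macrophages and other myeloid cells. The 9 basophil and eosinophil genes summed to 1.02 to 22.1 CPM in Kit+ K5- libraries, against 6.53 to 9.96 CPM in Kit- K5- libraries, and 8 melanocyte genes to 1.69 to 8.45 CPM in Kit+ K5- libraries, against 2.30 to 3.68 CPM. Epithelial genes were higher in Kit+ K5- cells than in Kit- K5- cells in 14 of 18, and 11 of 12 mesenchyme genes were lower. In Kit+ K5+ libraries 12 to 14 of the 15 leukocyte genes and 1 to 6 of the 9 basophil and eosinophil genes had counts, while C1qa of macrophages and Prss34 and Cebpe of basophils and other granulocytes had 0 counts in all of them. Without Kit+ K5- replicate 1, 7 of the 15 leukocyte genes were lower in Kit+ K5- cells than in Kit- K5- cells, and 12 of the 18 epithelial genes were higher. Over all genes 3385 then passed in either direction. The part of these lists in the results was not tested.

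**Figure D5:**
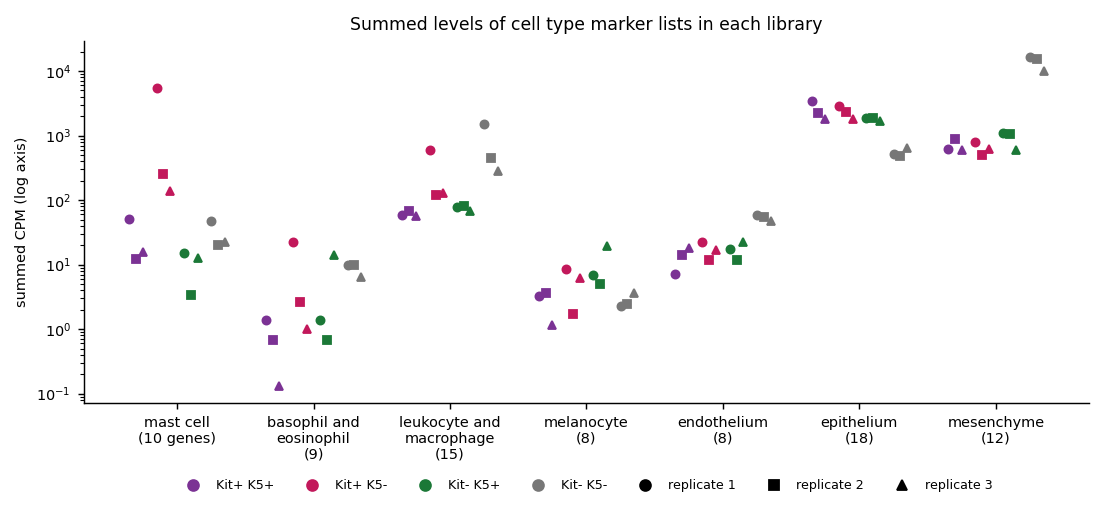
Summed CPM of the 10 mast cell genes and of lists of other cell types in each library (log axis), by population and replicate. Mast cell genes reach 5478 CPM in Kit+ K5- replicate 1, leukocyte and macrophage genes 589 CPM in the same library and 1522 CPM in Kit- K5- replicate 1, and epithelial genes stay between 1694 and 3420 CPM in all libraries but those of Kit- K5- cells.

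Across the 12 libraries the non-member genes whose log2 CPM was most like the mean of the 10 members, among 10406 genes, were 8430419L09Rik (Pearson r = 0.89), Gzmb (0.87), Gtf2b, Alox5 and Sec11c (0.86 each), Rnf19b, Chn2, Cmtm7 and Il1rl1 (0.85 each) and Nans (0.84). These values are a description, since all points share their libraries and Kit+ K5- replicate 1 is the extreme point. Alox5, the lipoxygenase that starts leukotriene synthesis, had 3.41, 1.25 and 0.775 CPM in Kit+ K5+ libraries, against 48.8, 4.0 and 4.51 CPM in Kit+ K5- libraries. Gzmb had 0 to 0.0922 CPM in Kit+ K5+ libraries, against 11.4 to 30.2 CPM in Kit+ K5- libraries. Gtf2b, a general transcription factor, had 27.3 to 36.3 CPM in Kit+ K5+ libraries, against 36.7 to 52.3 CPM in Kit+ K5- libraries, so likeness in shape did not mean a like size of difference.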

How the data were processed

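RNA of 12 sorted libraries, 3 per population, was read as single 50 nt reads. The deposited values were whole-number gene counts, per the file headers and the values. The submitters' processing notes name STAR 2.4.2a, featureCounts 1.4.6-p3, Picard 1.129, FastQC and the build GRCm38.p3, and they leave the annotation release and strand setting unstated. Between the matrix and the tables of single libraries 0 values differed, and 0 columns were left unused.

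The analysis used R 4.3.3, edgeR 4.0.16, limma 3.58.1 and, as an alternative, DESeq2 1.42.0. The filter filterByExpr kept 17030 genes, 10 of 10 mast cell genes among them. Libraries were scaled by TMM and fitted together with 1 coefficient per population and 8 residual degrees of freedom, with a common biological coefficient of variation of 0.437. All adjusted p-values are from edgeR's quasi-likelihood test with Benjamini-Hochberg adjustment over all genes kept, at a threshold of 0.05. The SE of a log2 difference is the one implied by the F statistic, which is unstable for differences near 0 and for groups without counts. A fitted log2 difference against a group without counts depends on the prior count, and bounds use a floor of 3 counts over the group. The fit was tested on simulated data.

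Library numbers in the labels run from 1 to 12, and runs of 4 hold each population once. Deviations from the population means correlated within runs at r of 0.263 to 0.369 for K5 among Kit+ cells, 0.153 to 0.207 for K5 among Kit- cells, 0.108 to 0.157 for Kit among K5+ cells and 0.299 to 0.408 for Kit among K5- cells. A block on runs left 6 residual degrees of freedom. The other alternatives were RLE scaling, no filter, mitochondrial genes left out of the totals and each library left out in turn. Added after seeing the data were libraries 1 to 4 left out, without and with the block, and the bounds of Mcpt4 and the counts of the other lists without Kit+ K5- replicate 1.

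The naming rule covers all 10 members in each comparison, and those that passed neither without nor with the block in the comparisons other than K5 among Kit+ cells and Kit among K5- cells are in part given as a count. From each other list up to 4 genes past the threshold were eligible, and part of these are written out. Mcpt8, Prss34 and Enpp3 in K5+ cells of either kind, Fcer1g, Fcer1a and Laptm5 were picked after their values were seen. The likeness list holds the 10 highest correlations among non-member genes with a mean of at least 10 CPM in a population, on log2 CPM with a prior count of 2. The members and lists were chosen with earlier results of these data known. Positions and transcripts are from GENCODE M21 on GRCm38 and promoters from RefSeq, and figures were drawn with Python 3.11.15 and matplotlib 3.10.9.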

Additional observations from a re-analysis of the deposited data

Results flagged for a closer look

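In Mcpt4 and Slc22a3 the K5 difference among Kit+ cells differed from that among Kit- cells by the interaction in edgeR's quasi-likelihood fit. Both genes had entered the tests through Kit+ K5- libraries, where they were high. For Mcpt4 the interaction was -15.90 on the log2 scale (adjusted p = 0.0181). The size rests on groups with 0 counts and is no bound. It ranged from -16.47 to -13.40 with single libraries left out, and its call was lost without Kit- K5+ replicate 1 (adjusted p = 0.15). With libraries 1 to 4 left out it was -11.87 (adjusted p = 0.0817). For Slc22a3 the interaction was -7.34 ± 1.70 (adjusted p = 0.027). It ranged from -11.50 to -5.78 with single libraries left out, lost its call in 7 of 12 of them, and was -10.01 (adjusted p = 0.0467) with libraries 1 to 4 left out. In the last setting, as without Kit+ K5+ replicate 1, Slc22a3 had 0 counts left in Kit+ K5+ libraries. Its fitted sizes there depend on the prior count.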

How the results depend on the processing

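Of the 10 mast cell genes, the number called among Kit+ cells by K5 was 0, against 3 with DESeq2, 10 with no filter, 8 with the replicate block, 1 with libraries 1 to 4 left out, 1 with these left out and the block, and 0 to 1 with single libraries left out. Among Kit- cells by K5 it was 1, against 4 with no filter, 3 with the block, 2 and 2 with libraries 1 to 4 left out without and with the block, and 0 to 1 with single libraries left out. Among K5+ cells by Kit it was 0, against 7 with no filter, 3 with the block and 0 with each single library left out. Among K5- cells by Kit it was 9, against 6 with DESeq2, which gave no p for Cpa3, Mcpt4 and Hdc, and 6 to 9 with single libraries left out. For the interaction it was 2, against 1 with DESeq2, 7 with no filter, 3 with the block, 1 and 1 with libraries 1 to 4 left out without and with the block, and 1 to 3 with single libraries left out. By the rule that every correlation within a run be over 0.1, the runs do not pair the libraries for the interaction. The lowest was 0.0928, close to the 0.108 accepted for Kit among K5+ cells. RLE scaling left all 5 numbers as they were. These numbers include the members that passed the filter through Kit+ K5- libraries. With no filter 36398 genes were fitted and the prior degrees of freedom were infinite (median 5.87 with the filter), so the spread of single genes did not enter those tests.

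Over all genes the number called was 0 for K5 among Kit+ cells (119 with DESeq2, 318 with no filter, 54 with the block, 3 and 7 with libraries 1 to 4 left out without and with the block, 0 to 4 with single libraries left out). It was 112 for Kit among K5+ cells (1039, 1212, 788, 8 and 290, and 4 to 240 in the same order) and 684 for the interaction (1411, 1960, 1418, 452 and 1096, and 370 to 729). It was 2806 for K5 among Kit- cells (1691 with libraries 1 to 4 left out, 1362 to 3157 with single libraries left out) and 3624 for Kit among K5- cells (2123 to 3754 with single libraries left out).

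Signs turned for 5 differences, 0 of which was called. For Cma1 this rests on groups with 0 counts, and for the others the cause was not tested. Maob by K5 among Kit+ cells was 0.29 with libraries 1 to 4 left out and 0.20 with the block as well. Cma1 by K5 among Kit- cells was 0 and -0.0285 in these settings, where both populations had 0 counts, so no sign can be read. It was -3.16 to 4.17 with single libraries left out. The value of -3.16, without Kit- K5+ replicate 1, had 0 counts left in Kit- K5+ libraries. Hdc by Kit among K5+ cells was -1.08 to 0.20 with single libraries left out. Ms4a2 by Kit among K5- cells was -0.22 and -0.37 with libraries 1 to 4 left out without and with the block, and -0.71 to 2.35 with single libraries left out. The Gata2 interaction was 0.72 with the block and -1.32 to 2.10 with single libraries left out, above 0 in 4 of 12 of these (0.13, 0.26, 2.04 and 2.10). With mitochondrial genes left out of the totals, the shares of the Kit+ K5- libraries were 0.740%, 0.0307% and 0.0174%. Most proteases had few counts or 0 in the Kit+ K5+ and Kit- libraries, so their ratios there have wide counting intervals or are bounds.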
